A study of Mus musculus with 173 samples.

Results

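Cytosolic ribosomal protein genes make the protein part of the ribosome, the machine that translates messenger RNA. The small (40S) subunit reads the message, the large (60S) subunit joins amino acids and holds the tunnel through which the new chain leaves, and the acidic P proteins form a stalk on the large subunit that recruits translation factors. Most ribosomal proteins are needed in equal amounts, and cells are known to tune their translation together through a terminal oligopyrimidine (TOP) start, a C followed by a run of C and T at the first bases of the messenger RNA. In the adult hippocampus, quiescent neural stem cells are known for low protein synthesis, which is higher once they enter the cell cycle.

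The genes were chosen by symbol, as the rows named Rpl or Rps with a number and at most 1 closing letter, together with Rplp0, Rplp1, Rplp2 and Rpsa. This gave 76 of the 23307 rows of the table, 46 of the 60S subunit and 30 of the 40S subunit. Of these, 73 passed the filter on low values, a TPM of at least 1 in at least 5% of libraries. Within the C libraries alone each of the 73 also passed, the lowest share being 16.9% for Rps21. Rps3a1 and Fau, which also encode ribosomal proteins, fall outside the rule on names.

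The libraries are single cells from the dentate gyrus of C57BL/6 mice aged 8 to 12 weeks, with no treatment or allele in the labels, and they were made with the NuGEN Ultralow V2 protocol. The study profiled quiescent neural stem cells and their immediate descendants. The titles give 3 classes whose letters are not spelled out, and of the 172 libraries 4 are R, 26 are N and all others are C. The C libraries were further divided by the means of lists of S phase and of G2 and mitosis genes on the log2(TPM + 1) scale, and a mean of at least 2 in either list gave 36 cycling libraries, with all other C libraries non-cycling. A total of 26 C libraries lay within 0.5 of that limit, so the division is a range and not a cell type. No ribosomal protein gene is in either list.

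The markers bear on these classes. The neural stem cell list mean reached 4 in all but 9 C libraries, and in non-cycling C its median was 7.99. The mature neuron list had a median of 0.34 in C and reached 4 in 4 of 4 R libraries, where it ran from 5.84 to 7.20. It also reached 4 in 4 C libraries. In all, 18 C libraries reached 4 for mature neuron, oligodendrocyte, oligodendrocyte precursor, endothelial, mural, microglia or erythroid genes. The lists did not separate the classes fully: the neural stem cell list also reached 4 in all 4 R libraries (4.09 to 5.73) and in 4 N libraries (highest 8.20), and the neuroblast list reached 4 in 3 R libraries. The N libraries were mixed, with 6 high for endothelial genes, 4 for oligodendrocyte genes, 4 for oligodendrocyte precursor genes, 3 for mural genes and 3 for neuroblast genes. The erythroid list also reached 4 in N3 (4.08) and N26 (9.87), both among those high for endothelial genes. Libraries had from 1600 to 7192 genes at a TPM of at least 1, and the sequencing depth is unknown, because TPM keeps no depth. The labels name no animal, so each class counts as 1 sample, no test was possible, every SD is between libraries, and a difference between class means was called when it was at least 1 on the log2(TPM + 1) scale. C142 and N21 stood apart. In C142 ribosomal protein genes took 31.5% of all TPM, with Rpl19 alone at 55303 TPM. N21 had the lowest number of genes and 49 of the 73 ribosomal protein genes past the filter at 0.

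The first bases at the annotated starts differ among these genes. RefSeq promoter windows on GRCm38.p6, a later build than the mm9 the authors used, were at hand for 56 of the 76 genes (66 windows, since some genes have several starts). Below are the 35 bases before and the 15 bases from the annotated start of 8 genes on which later results turn, 5′ to 3′ on the strand of the gene, with a TOP start (C and at least 4 further bases of C or T) in capitals. Rps27, Rps6, Rplp2, Rps21 and Rps10 have such a start, and Rps26, Rpl41 and Rps2 have none at the annotated base. Rps21 has a further annotated start, not printed, without a TOP start.
Rps27: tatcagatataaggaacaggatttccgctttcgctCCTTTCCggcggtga
Rps6: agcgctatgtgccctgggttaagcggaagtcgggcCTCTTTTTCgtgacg
Rplp2: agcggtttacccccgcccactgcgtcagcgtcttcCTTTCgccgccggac
Rps21: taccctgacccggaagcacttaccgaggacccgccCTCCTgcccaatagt
Rps10: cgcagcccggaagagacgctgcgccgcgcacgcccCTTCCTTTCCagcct
Rps26: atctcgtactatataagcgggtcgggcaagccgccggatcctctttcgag
Rpl41: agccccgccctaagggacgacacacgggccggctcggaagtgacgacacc
Rps2: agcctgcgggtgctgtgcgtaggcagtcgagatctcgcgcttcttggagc

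These windows lie at chr3:90213634-90213683 (minus strand, Rps27), chr4:86857353-86857402 (minus, Rps6), chr7:141447616-141447665 (plus, Rplp2), chr2:180257344-180257393 (plus, Rps21), chr17:27635230-27635279 (minus, Rps10), chr10:128626492-128626541 (minus, Rps26), chr10:128549154-128549203 (minus, Rpl41) and chr17:24720028-24720077 (plus, Rps2). Each holds the last promoter bases and the first transcribed bases of its gene. A TOP start stood in 13 of 66 windows of ribosomal protein genes (19.7%), against 2.51% of all 32851 windows. The motif CCGGAAG, on either strand of the whole window of 250 bases before and 50 bases after the start, stood in 36.4% of their windows and in 8.86% of all windows. AAGATGGC, likewise on either strand, stood in 10.6% and 2.75% (the letters AAG end one motif and can begin the other). A match is a description of these letters at the annotated start, which may not be the base a cell uses most.

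Among non-cycling C libraries the genes of this single machine differed widely in level. TPM is scaled by transcript length, and levels of different genes are given on that scale. It does not remove the limits described further on, that short transcripts of these genes were listed at 0 more often and that some genes share reads with near-identical rows. Of the 76 genes, 10 had a median of at least 1000 TPM, 48 had one from 100 to 1000, 10 had one below 100 and above 0, and 8 had a median of 0. The median of these medians was 390.3 TPM for the 60S genes and 453 TPM for the 40S genes.

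**Figure D1:**
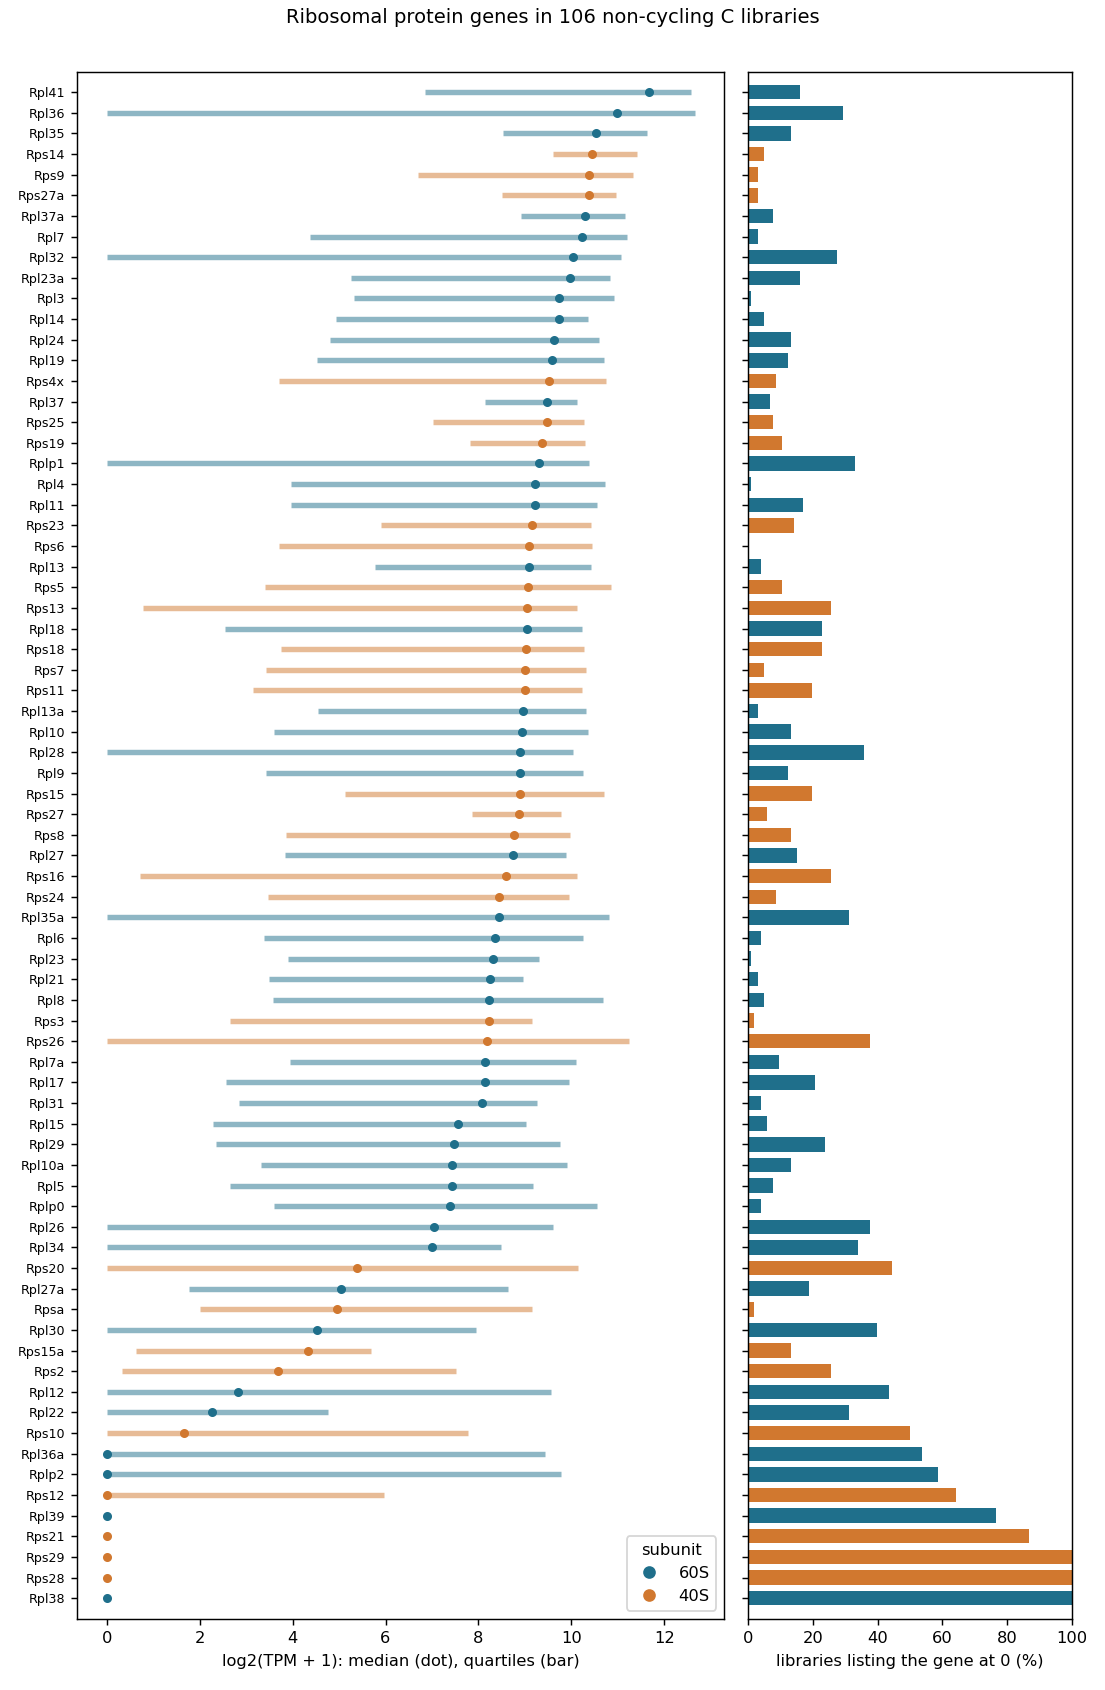
Level of 74 of the 76 ribosomal protein genes in the non-cycling C libraries, as log2(TPM + 1) with the median (dot) and quartiles (bar) on the left, and the share of libraries that list the gene at 0, in percent, on the right. Blue marks 60S and orange 40S genes; Rpl41 is highest, and Rpl38, Rps28 and Rps29 are at 0 in every library.

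The highest medians belonged to Rpl41, Rpl36, Rpl35, Rps14 and Rps9. Rpl41, the shortest ribosomal protein, which bridges both subunits, ran from 0 to 24727 TPM around a median of 3245 TPM, and it was at 0 in 17 non-cycling libraries. Rpl36, a 60S protein, had a median of 2018 TPM and was at 0 in 31 libraries and at 1000 TPM or more in 54. Rpl35, at the exit of the peptide tunnel, had a median of 1472 TPM and was at 0 in 14 libraries. Rps14, whose human counterpart lies in a region deleted in a myelodysplastic syndrome, had a median of 1399 TPM and was at 0 in 5 libraries, and Rps9, a 40S protein, had 1342 TPM and was at 0 in 3. The order of neighbours was not tested. The SD between libraries on the log2(TPM + 1) scale was 4.67 for Rpl41, 5.53 for Rpl36, 3.98 for Rpl35, 3.16 for Rps14 and 3.30 for Rps9. It describes the spread of each gene and does not measure how certain its place in the order is.

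At the other end, Rpl36a, Rpl39, Rplp2, Rps12 and Rps21 had a median of 0 in non-cycling C. They were not low in every library. Rpl39, which lines the peptide tunnel, was at 0 in 81 libraries (76.4%) and at 1000 TPM or more in 16, with a highest value of 17462 TPM. Rps21, a small 40S protein, was at 0 in 92 libraries and at 1000 TPM or more in 11. Rps12, a 40S protein, was at 0 in 68, and Rpl36a, a 60S protein, in 57. Each of these genes also had libraries at 100 TPM or more, from 12.3% of non-cycling libraries for Rps21 to 39.6% for Rpl36a. Rpl38, a 60S protein known in mice for its part in the translation of Hox messages, and the small 40S proteins Rps28 and Rps29 were listed at 0 in all 172 libraries of every class. A 0 in a file without counts can be a failed estimate: Gapdh, which every cell uses, was at 0 in 2 libraries.

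Among the ribosomal protein genes, short transcripts were listed at 0 more often. Across the 76 genes the share of non-cycling libraries at 0 had a Spearman rho of -0.41 with the GENCODE M21 length of the shortest basic protein-coding transcript, a description over genes that share every library. The 3 genes at 0 throughout have 345, 271 and 390 nt (Rpl38, Rps28 and Rps29). Of the 8 ribosomal protein genes below 400 nt, 3 were at 0 in every library, and 42.5% of all 268 genes of that length were. This share of all genes was 32.5% from 400 to 600 nt, 45.1% from 600 to 1000 nt and 14.2% at 1000 nt or longer. Over all genes the shortest transcripts therefore did not have the largest share. The median share at 0 was 23.1% for the 28 ribosomal protein genes from 400 to 600 nt, 12.3% for the 27 from 600 to 1000 nt and 3.77% for the 13 longer ones. Short length did not always go with many zeros: Rps27, at 329 nt, was at 0 in 5.66% of libraries. Whether library preparation, the authors' processing or the cells set this relation was not tested.

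**Figure D2:**
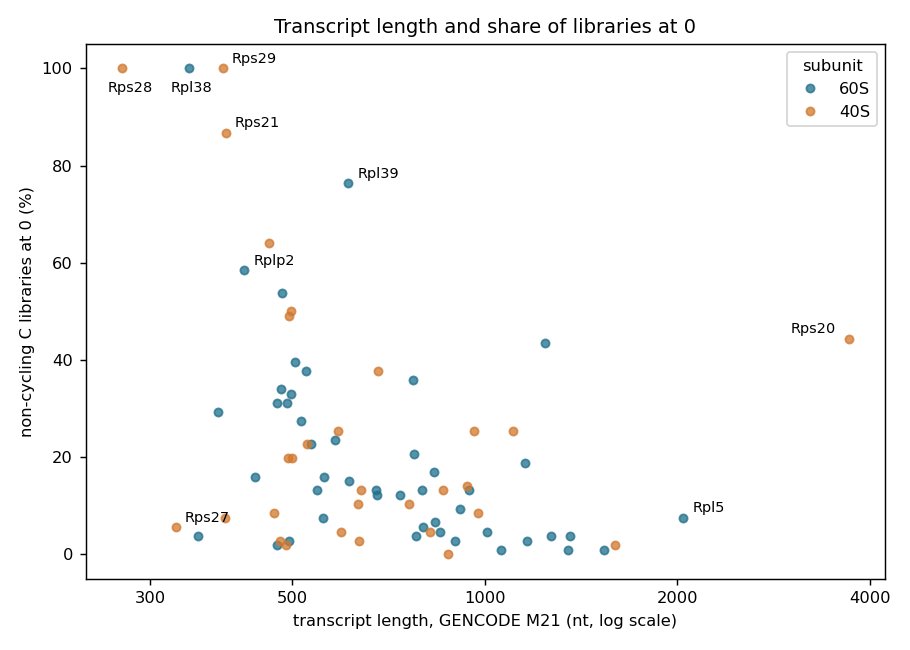
Share of the non-cycling C libraries that list a ribosomal protein gene at 0 (percent) against the length of its shortest GENCODE M21 basic protein-coding transcript (nt, log scale), 1 dot per gene, blue for 60S and orange for 40S. Zeros are most frequent at the short end, with Rps27 a short gene at 5.66%.

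Gene-by-gene spread was large. In non-cycling C the SD of log2(TPM + 1) had a median of 3.84 over the 73 genes, against 2.0 over all 12007 genes past the filter, most of which are near the floor. Of all values of the 73 genes in these libraries 19.4% were at 0, 9.71% lay from 1 to 10 TPM, 12.2% from 10 to 100, 28.1% from 100 to 1000 and 30.1% at 1000 or above. The spread was therefore made of values at 0, of low values and of values above 1000 TPM at once. With values at 0 left out, the median SD was 2.73. In the 88 non-cycling libraries high for stem cell genes and for no other cell type list, the median number of these genes at 0 was 15, against 14.5 in all non-cycling C.

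Among the steadiest of the genes at a TPM of at least 1 in 50% or more of the libraries were Rps27, Rps15a, Rpl23 and Rpl22. Rps27, a zinc-binding 40S protein, had an SD of 2.53 and was at 100 TPM or more in 93 libraries and at 0 in 6, with a median of 468 TPM. Rps15a had an SD of 2.54 at a much lower level, with a median of 18.98 TPM and a highest value of 146 TPM, but with its near-identical rows added its SD was 3.70 and its median 264 TPM, so it is then not among the steadiest. Rpl23, a 60S protein that can bind Mdm2, had an SD of 2.999 and a median of 315 TPM, and was at 0 in 1 library. Rpl22, which has an expressed paralogue, had an SD of 3.03 at a low level, with a median of 3.80 TPM and 31.1% of libraries at 0.

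Among the widest genes by the same measure were Rpl36, Rps26, Rpl32 and Rpl35a. Rps26, at the exit of the messenger RNA channel, had an SD of 5.24, with 40 libraries (37.7%) at 0 and 42 at 1000 TPM or more. Rpl32 (SD 4.85) was at 0 in 29 libraries and Rpl35a (SD 4.83) in 33. Leaving out the values at 0 brought these genes to smaller spreads: the SD was 2.43 for Rpl36, 2.11 for Rps26, 1.996 for Rpl32 and 2.26 for Rpl35a. In the same way it was 1.52 for Rps27, 2.33 for Rps15a, 2.93 for Rpl23 and 2.75 for Rpl22. Of the steadiest genes named, only Rps27 then stayed below all of the widest, so the order depends on the values at 0. Rps6, the 40S protein phosphorylated by S6 kinase, was above 0 in every library of the table and still had an SD of 3.496 in non-cycling C, where it ran from 1.11 to 3861 TPM around a median of 546 TPM. Rpsa, also known as a laminin receptor, was at 0 in 2 libraries, with a median of 29.8 TPM and an SD of 3.5005.

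Some zeros stood beside reads given to a near-identical row. RSEM divides reads that fit several rows, and 12 of the 76 genes have such a predicted gene or pseudogene in the table. A row was taken if its transcript matches over at least 200 bases at 95% identity or more, or if it is named as a pseudogene of the gene. Rows taken by name are also called near-identical here, although their identity was not required. Rplp2, a protein of the stalk, was at 0 in 62 non-cycling libraries, and its pseudogene row Rplp2-ps1 was above 0 in 60 of those 62. With both rows added, Rplp2 was at 0 in 1.89% of these libraries instead of 58.5%, and its median was 412 TPM. For Rps26 and Rpl26 the share at 0 fell to 22.6% each with the copy row added, against 37.7% without it. For Rps15a it was 4.72% against 13.2%, and the summed median was 264 TPM against 18.98 TPM. Rps27, Rps19 and Rpl34 kept the same share at 0. The summed median was 609 TPM against 130 TPM for Rpl26, whose C minus N difference was 0.03 with the copy row and 0.70 alone, and 657 TPM against 291 TPM for Rps26. Values of Rplp2, Rps15a, Rpl26 and Rps26 alone are therefore uncertain.

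**Figure D3:**
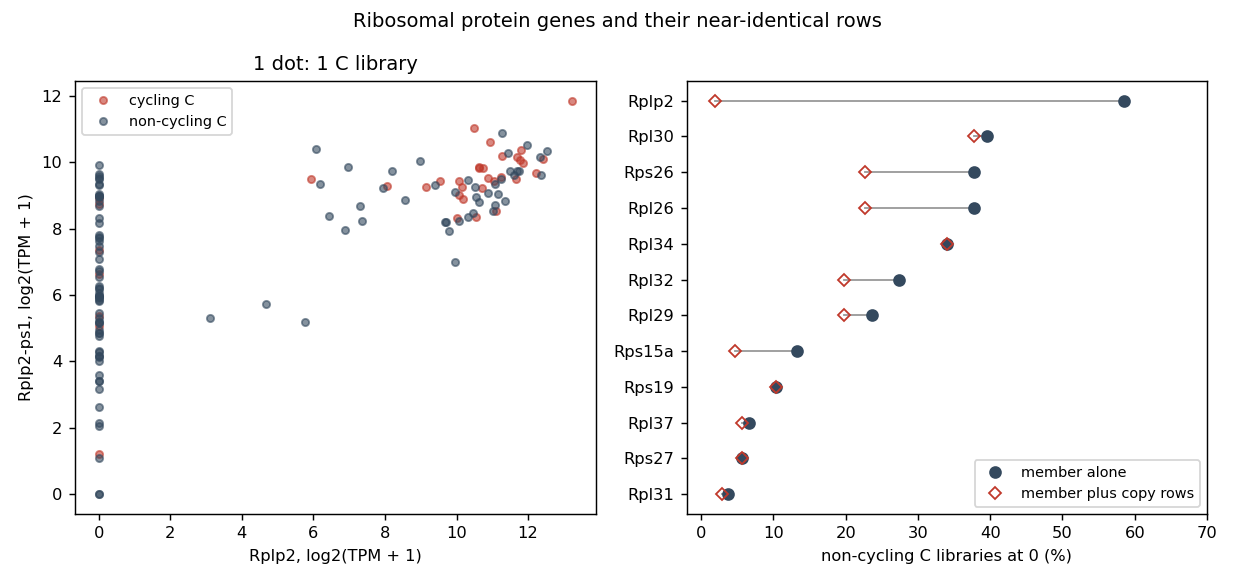
Left, Rplp2 against its pseudogene row Rplp2-ps1 in each C library, log2(TPM + 1) on both axes, red for cycling and blue-grey for non-cycling C. Right, percent of the non-cycling C libraries at 0 for the 12 genes with a near-identical row, for the gene alone (filled) and with its copy rows added (open); Rplp2 is at 1.89% with its copy row and at 58.5% alone.

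The genes varied together across libraries to different degrees. Each gene was set against the mean of the other ribosomal protein genes over the non-cycling libraries (all C libraries but the 36 cycling ones), which share a common TPM total. Spearman's rho had a median of 0.32 and ran from 0.08 to 0.54, and 43 of the 73 genes reached 0.3, against 1.38% of all genes. It was highest for Rps26 (0.54), with high values also for Rpl27 (0.51), Rpl32 (0.48) and Rpl26 (0.48). It was lowest for Rpl12 (0.08), a protein at the base of the stalk, Rps2 (0.10), Rpl18 (0.11), Rpl7 (0.16) and Rpl36 (0.18). High and low values both occurred in 60S and in 40S genes, with medians of 0.32 and 0.35. The stalk proteins Rplp0, Rplp1 and Rplp2 had 0.33, 0.32 and 0.22.

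Other genes of the translation machinery varied with this mean to different degrees. Over the same libraries its rho was 0.61 with the mean of 17 other TOP messenger RNAs (elongation factors and their like), 0.65 with ribosomal protein paralogues and fusions, 0.55 with the mitochondrial ribosome and 0.23 with ribosome assembly and rRNA synthesis. It was 0.33 with intermediate progenitor genes, 0.09 with neural stem cell genes and 0.08 with the number of genes detected. Of single genes, 4 of 8 paralogues and fusions (50%) and 2 of 17 TOP genes (11.8%) reached 0.3, against 1.38% of all genes. So did 2 of 75 of the mitochondrial ribosome (2.67%) and 0 of 24 assembly genes, which is near that share. The 12 genes past the filter with a TOP start at the annotated base had a median rho of 0.29 and a median SD of 3.92, and the 42 without one had 0.33 and 3.76, so the groups overlapped.

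Cycling C libraries had more of these transcripts than non-cycling C libraries. Ribosomal protein genes took a median of 9.96% of all TPM in cycling C (range 3.05 to 22.3) and 5.99% in non-cycling C (range 2.20 to 31.5; the highest without C142 was 20.6). The median number of the 73 genes past the filter at 0 in a library was 3 in cycling C (the lowest was 0) and 14.5 in non-cycling C. The ranges overlapped on both measures.

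**Figure D4:**
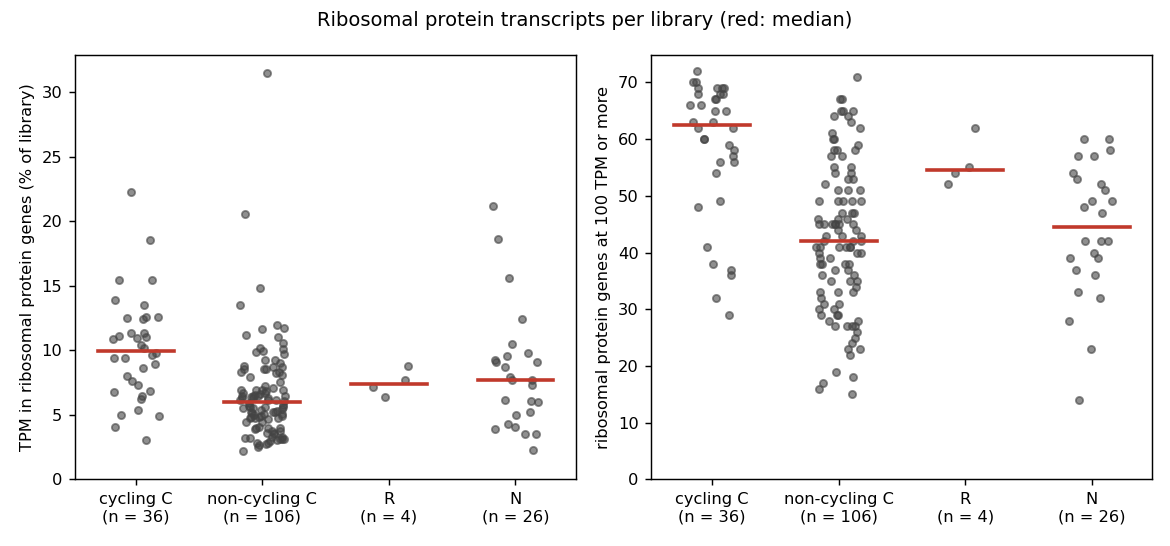
Percent of all TPM in the 76 ribosomal protein genes (left) and number of them at 100 TPM or more (right) in each library of cycling C, non-cycling C, R and N, 1 dot per library with the median in red. Medians on the left are 9.96, 5.99, 7.44 and 7.71%, and the groups overlap.

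Of the 73 genes, 70 were higher in cycling C by at least 1 on the log2(TPM + 1) scale, where 12.9% of all genes were, and 0 were lower by that much, where 3.2% of all genes were. The median difference was 1.88 for these genes and 0.07 for all genes, and it was 1.88 for the 60S and 1.89 for the 40S genes. The groups differ in more than the cell cycle: the median library had an intermediate progenitor list mean of 3.5 in cycling and 1.63 in non-cycling C, and neural stem cell list means of 6.06 and 7.99, and the part of these lists in the difference was not tested. When cycling was read from Mki67 or Top2a alone, 28 genes were higher, where 7.0% of all genes were.

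The highest 3 differences belonged to Rplp2, Rpl39 and Rps12. Rplp2 had medians of 1530 TPM in cycling and 0 TPM in non-cycling C and was at 0 in 7 of 36 cycling (19.4%) and 62 non-cycling libraries (58.5%), a difference of 4.63 on the log2 scale, which was 2.44 with the pseudogene row added. Rpl39 was at 0 in 47.2% of cycling and 76.4% of non-cycling libraries (3.64), and Rps12 in 30.6% and 64.2% (3.63). Rplp0, the base of the stalk, had medians of 1635 TPM in cycling and 168 TPM in non-cycling C (2.83), and Rplp1 had 795 and 631 TPM (1.81). With values at 0 left out, 40 of the 73 genes were higher by at least 1, where 21.7% of all genes were, and the differences were 1.10 for Rplp2, 1.09 for Rpl39 and 1.40 for Rps12.

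Of other named genes, Rpsa had medians of 765 TPM in cycling and 29.8 TPM in non-cycling C (2.70), and Rps6 had 1271 and 546 TPM (2.31). Rpl41 was above 0 in all 36 cycling libraries, at a median of 7662 TPM, against 3245 TPM in non-cycling C (2.98). Rps26 had medians of 2571 and 291 TPM (3.48, or 3.02 with the copy row added). Values of all 4 genes nonetheless overlapped between cycling and non-cycling libraries.

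The lowest 3 differences belonged to 40S genes. Rps27 had medians of 524 TPM in cycling and 468 TPM in non-cycling C (0.01). Rps27a, which is made as a fusion with ubiquitin, had 1257 and 1323 TPM (0.12), and Rps25 had 644 and 710 TPM (0.73). The difference of Rps25 passed 1 under other choices, at 1.08 with C libraries high for other cell type lists left out and 1.28 with cycling set at a list mean of 3, and it was -0.28 with cycling read from Mki67 or Top2a. With upper quartile scaling, which moved the median of all genes to -0.06, Rps27 had a difference of -0.57 and Rps27a of -0.49, and the median of the 73 genes was 1.35. Rps27 carries a TOP start at the annotated base, like Rps6 and Rplp2. The 12 genes with such a start there had a median difference of 1.93, against 1.85 in the 42 without one at that base. Genes of the second group may have a TOP start at another base.

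**Figure D5:**
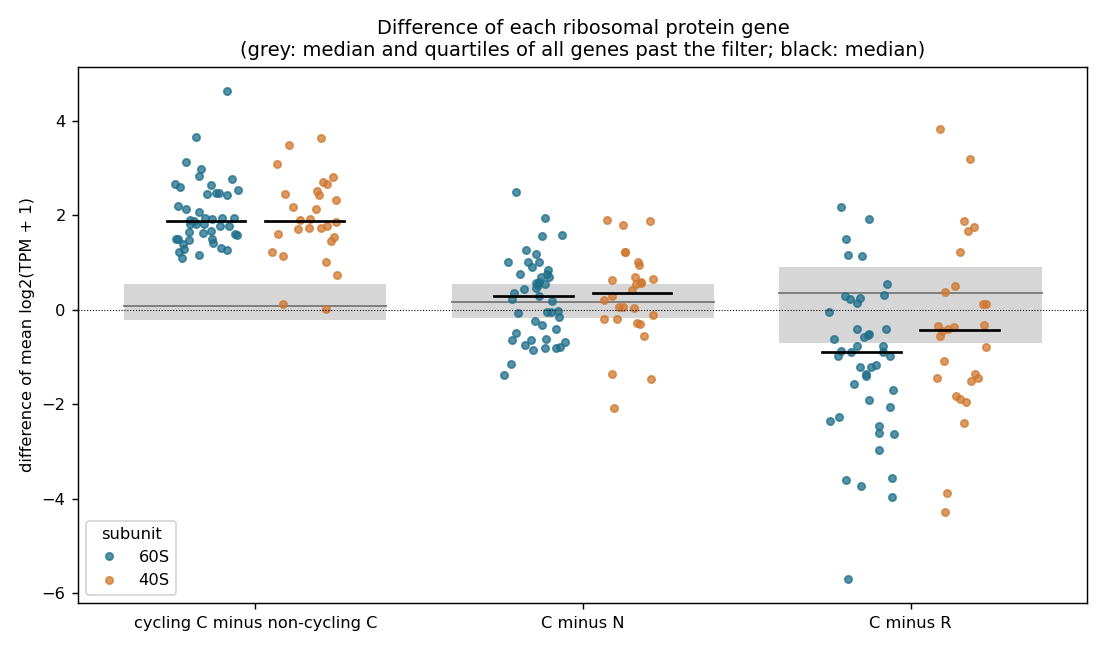
Difference of mean log2(TPM + 1) for each of the 73 ribosomal protein genes in cycling minus non-cycling C, C minus N and C minus R, 1 dot per gene, blue for 60S and orange for 40S, black lines at their medians, grey bands from the lower to the upper quartile of all 12007 genes with their median. Nearly all genes lie above the band for cycling C, while C minus N and C minus R have genes on both sides of 0.

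Among other genes of translation, most TOP genes and most paralogues were higher in cycling C by at least 1, and fewer than 50% of the assembly and mitochondrial ribosome genes were, where 12.9% of all genes were. Of 17 other TOP genes 15 were higher by at least 1 and 0 lower, with a median of 1.81. Hnrnpa1, an RNA-binding protein, led them at 5.86 ± 4.72 in cycling and 1.10 ± 2.85 in non-cycling C, whereas Eif4b, an initiation factor, had 2.10 ± 2.89 and 2.34 ± 3.08. Of 8 paralogues and fusions 7 were higher, among them Rps27l at 6.91 ± 4.23 and 4.14 ± 4.71 and Fau, a fusion with a ubiquitin-like protein, at 9.07 ± 2.52 and 7.02 ± 4.08. Of 24 genes of ribosome assembly and rRNA synthesis 9 were higher and 0 lower (median 0.43), and Nop56, a core protein of the box C/D particle that guides rRNA methylation, had 6.12 ± 3.86 and 3.46 ± 3.40. Of 75 mitochondrial ribosome genes 32 were higher and 0 lower (median 0.84). All these values are mean log2(TPM + 1) with the SD between libraries (n = 36 in cycling C, and all other C libraries).

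C and N libraries differed little in the sum and in both directions for single genes. Ribosomal protein genes had a median share of 6.50% in C and 7.71% in N (range 2.31 to 21.2) of a library's TPM. Within N the range was 6.00 to 18.6% in the 6 libraries high for endothelial genes, 7.70 to 9.28% in the 3 mural ones, 6.12 to 12.4% in the 3 neuroblast ones, 2.31 to 9.59% in the 4 oligodendrocyte ones and 3.51 to 7.94% in the 4 precursor ones. These 5 ranges lie inside that of C, 2.20 to 31.5%. Without C142 the C range ended at 22.3%, in a cycling library, above the highest N library. Non-cycling C without C142 ended at 20.6%, below that N library. The endothelial low of 6.00% was N26, which was higher for erythroid genes (list mean 9.87) than for endothelial genes (5.86).

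Of the 73 genes, 15 were higher in C by at least 1, where 9.98% of all genes were, and 5 were lower, where 4.19% were. The median difference was 0.30 (0.17 over all genes), with 44 genes above 0. Without N21 the counts were 8 higher, where 9.31% of all genes were, and 8 lower, where 4.77% were. With upper quartile scaling they were 9 higher (9.17% of all genes) and 11 lower (6.01% of all genes), so the split rests on 1 library and on the scaling. C includes the 36 cycling libraries, whereas no N library reached the limit for cycling (highest list mean 1.98). The mean log2(TPM + 1) of the 73 genes averaged 6.63 over non-cycling C, 7.13 over all C and 6.87 over N. Non-cycling C thus lay below N. The part of the cycling libraries in single genes was not tested.

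Rpl29, a 60S protein that mice can live without, had a median TPM of 441 in C and 5.51 in N, a difference of 2.50, the highest of the 73 genes. Rpl18 had medians of 693 and 53.8 TPM (1.95), Rps15, whose tail reaches the decoding centre, 605 and 165 TPM (1.90), and Rps4x, encoded on the X chromosome, 824 and 42.3 TPM (1.79). Rps21 was at 0 in 83.1% of C libraries and listed at 0 in all 26 N and all 4 R libraries, so no fold is given. With values at 0 left out the difference of Rps15 was 0.42. In the other 4 genes C and N values overlapped, each class having libraries at 0.

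Among the genes lower in C were Rps12, with a median TPM of 0 in C and 94.6 in N (-1.46), and Rps2, a 40S protein near the entry of the messenger RNA channel, with 17.6 and 233 TPM (-1.36). Rplp2 had 38.9 and 519 TPM (-1.38, or -0.54 with the pseudogene row added), and Rpl37a had 1542 and 2128 TPM (-1.14). In these genes too the values of C and N overlapped. With values at 0 left out the differences were -0.01 for Rps12, -0.74 for Rps2, 0.03 for Rplp2 and -0.50 for Rpl37a, and with a pseudocount of 10 each was also smaller than 1 in size. Rps12 was also among those higher in cycling than in non-cycling C, with a difference of 3.63.

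In the sum, ribosomal protein genes had a median of 6.50% of TPM in C and 7.71, 7.16, 6.39 and 8.78% in R1 to R4, the libraries high for mature neuron genes, which lay close to each other and inside the range of C. Per gene, 11 of the 73 were higher in C by at least 1, where 22% of all genes were, and 31 were lower, where 20.9% were. The median difference was -0.79, against 0.36 over all genes. This split depended on the scaling: with upper quartile scaling, which moved the median of all genes to 0.50, 27 were higher (29.1% of all genes), 13 were lower (13.8% of all genes) and the median was 0.57. The class difference in sign was therefore not stable, and with 4 libraries 1 value can decide a gene. No R library reached the limit for cycling (highest list mean 0.96), while C includes cycling libraries. The mean log2(TPM + 1) of the 73 genes averaged 6.63 over non-cycling C, 7.13 over all C and 7.96 over R.

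Rpl36a was at 0 in 69 C libraries (48.6%) and at 1000 TPM or more in 33, and it was at 1508, 1179, 1216 and 1927 TPM in R1 to R4, a difference of -5.69 for C minus R. Rps2 had a median of 17.6 TPM in C and was at 1611, 150, 896 and 641 TPM in R1 to R4 (-4.28). Rpl27a had a median of 85.7 TPM in C and was at 621, 2062, 401 and 448 TPM in R (-3.96). For these 3 genes all 4 R libraries lay above the C median and inside the C range, and the direction held with upper quartile scaling (-4.42, -2.85 and -2.53). With values at 0 left out the difference of Rpl36a was -1.15.

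Rps10, a 40S protein mutated in human Diamond-Blackfan anaemia, had a median of 39.8 TPM in C, with 62 libraries (43.7%) at 0, and was at 3.69 TPM in R3 and at 0 in the other R libraries (3.82). Rps27a had a median of 1302 TPM in C and was at 1660, 1290, 5.23 and 0 TPM in R1 to R4 (3.19). The R libraries thus split into a pair at the C level and a pair near 0, and the difference was 1.21 without R4, 2.09 without R3, 4.66 without R2 and 4.78 without R1. Rpl36 had a median of 2902 TPM in C and was at 6907, 0, 5305 and 0 TPM in R1 to R4 (2.16). The direction for Rpl36 was not stable: its difference was 0.07 without R2 or without R4, 4.32 without R1 and 4.19 without R3, and it turned to -4.37 at a minimum of 3000 genes a library, which leaves 2 R libraries, and to -1.03 with values at 0 left out. The stalk gene Rplp0 had a median of 727 TPM in C and was at 1742, 301, 389 and 71.7 TPM in R1 to R4, and Rplp1 had 674 TPM in C and 1792, 912, 1295 and 2572 TPM in R1 to R4. Both were above 0 in every R library.

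Counts for other genes of translation against N and R lay in part near those of all genes. In C minus N, where 9.98% of all genes were higher and 4.19% lower, 1 of 17 other TOP genes was higher by at least 1 and 2 were lower, 6 of 24 assembly genes were higher and 0 lower, and 15 of 75 mitochondrial ribosome genes were higher and 2 lower. Btf3, of the nascent chain complex, averaged 6.94 ± 3.96 in C and 5.54 ± 4.16 in N on the log2(TPM + 1) scale, and its partner Naca averaged 7.63 ± 3.53 and 8.89 ± 3.45, so this pair differed in sign. In C minus R, where 22% of all genes were higher and 20.9% lower, 3 other TOP genes were higher (17.6%) and 5 lower (29.4%), 6 assembly genes higher (25%) and 4 lower (16.7%), and 21 mitochondrial ribosome genes higher (28%) and 22 lower (29.3%). Npm1, a nucleolar chaperone, averaged 7.37 ± 3.63 in C and 3.88 ± 3.81 in R, and Rps27l, a paralogue of Rps27, was listed at 0 in all 4 R libraries. The differences of Btf3, Naca and Npm1 were smaller than the SD between C libraries.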

How the data were processed

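The authors deposited 1 table of TPM (a share of transcripts, scaled by transcript length) per gene for 172 libraries; expression was estimated with RSEM on mm9, per the submitters' processing notes. The RSEM version is not given in the sources used here, nor are the aligner, the annotation and any cell filter. Of the 173 labelled samples, 171 columns match 1 title each; the column C27 fits 2 titles and counted as 1 numberless C library.

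Values were analysed as log2(TPM + 1), on which differences understate changes of low genes. Genes at a TPM of at least 1 in 5% of libraries (12007) gave the background. Class means were subtracted, with no test and no p-value. No doublets were called. The difference step was tested on simulated data. Near-identical transcripts were found with BLAST 2.17.0+ on GENCODE M21 (95% identity, 200 bases) and lengths taken there. Rows named as a pseudogene of a gene were added without this check. Promoter windows are RefSeq's on GRCm38.p6; coordinates on mm9 are not given. Python 3.11.15, pandas 2.3.3 and numpy 2.4.6 were used.

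Members and lists were chosen with earlier results of these data known. Named genes are those at either end of level, SD, correlation and each difference, with Rplp0, Rplp1, Rplp2, Rpsa, Rps6 and Rps27a. A few genes that this rule takes are not reported here. For other genes of translation the report names some of the 2 highest and 2 lowest of each list. Alternatives covered pseudocounts, filters, scalings, zeros, medians, the limit for cycling, library choices and each R library left out. Adding the near-identical rows and leaving out C142 or N21 were chosen after seeing the data.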

Additional observations from a re-analysis of the deposited data

Results flagged for a closer look

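Of 7 checks of R values for a library far from the other 3, 1 was met. Rps10 in R3 was at 2.23 on the log2(TPM + 1) scale, and the other 3 R libraries were at 0, so the whole range lies between R3 and the rest. By chance about 1 in 20 groups without ties would meet this rule. That rate does not hold here, since with 3 values tied at 0 any other value meets it, and R3 was at 3.69 TPM.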

How the results depend on the processing

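The median SD in non-cycling C was 4.76 with a pseudocount of 0.1, 2.93 with 10 and 2.73 with values at 0 left out (3.84 as reported). For C minus N, 8 genes were higher by at least 1 with a pseudocount of 10 (3.73% of all genes). There were 9 with upper quartile scaling (9.17% of all genes), 6 with zeros left out (20.9%) and 15 as reported (9.98%). Without N21 there were 8 (9.31% of all genes), and without C142 and N21 also 8 (9.46%). Those lower numbered 1 with a pseudocount of 10, 13 at a minimum of 3000 genes a library, 11 with upper quartile scaling, 2 with zeros left out and 8 without N21 (5 as reported). For C minus R, 27 were higher (29.1% of all genes) and 13 lower (13.8%) with upper quartile scaling. By medians 15 were lower (16.4% of all genes). As reported, 11 were higher (22% of all genes) and 31 lower (20.9%). For cycling C, 40 were higher with zeros left out (21.7% of all genes) and 46 by medians (9.04%). With cycling read from Mki67 or Top2a 28 were higher (7.0% of all genes), against 70 as reported (12.9%). The difference for Rpl36 in C minus R was -4.37 at the minimum of 3000 genes and -1.03 with zeros left out (2.16 as reported), and that for Rplp2 in C minus N was 0.031 with zeros left out (-1.38 as reported). The cause of these changes was not tested. Leaving out each R library in turn gave C minus R medians from -1.14 to -0.69, 8 to 16 genes higher and 30 to 38 lower, and a median share of TPM in R from 7.16 to 7.71%. Over all alternatives the median of C minus N ran from -0.20 to 0.37, that of C minus R from -1.14 to 0.57 and that of cycling minus non-cycling C from 0.82 to 2.23. The SD between libraries is wider than the medians of C minus N and C minus R, so it is no measure of their stability. No paired analysis was possible because the results come from no test and the numbers in the titles mark no shared animal. Depth is unknown, so a gene at 0 is only listed at 0.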

Other observations

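Outside these genes, the rows closest to their mean over the non-cycling C libraries, picked out after their values were seen, were Gm6607 (Spearman's rho 0.48), Gm6402 (0.46) and Serf1 (0.45). Rpl22l1 (0.45), Rps15a-ps4 (0.44), a near-identical row of Rps15a, Rpl39l (0.43), Psmb5 (0.43), Atp6v1g1 (0.41) and Psma2 (0.41) followed. At the other end were Cst3 (-0.42) and Tmem170 (-0.40).

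The ratio of summed 60S to summed 40S TPM in a library had a median of 2.03 in cycling C, 1.86 in non-cycling C, 2.74 in R and 1.96 in N. It ran from 0.738 to 6.91 in non-cycling C and from 1.47 to 3.26 in R. The sums run over 46 60S and 30 40S genes, so the ratio does not compare levels per gene. In non-cycling C the median of gene medians was 390.3 TPM for 60S and 453 TPM for 40S genes. The lowest ratio belonged to C92, in which Rps9 was at 11534 TPM, or 21.1% of all ribosomal protein TPM of that library.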
